A study of Homo sapiens with 6 samples.

Results

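The metallothionein system of SKOV3 cells was followed through 8 genes: the metallothioneins MT1E, MT1F, MT1G, MT1M, MT1X and MT2A, the zinc-sensing transcription factor MTF1, and SLC30A1, which encodes the zinc exporter of the plasma membrane. They were taken by symbol from the 58825 gene identifiers of the count table, in which each of the 8 symbols matched a single identifier. A count was present in at least 1 library for 7 of the 8, and 5 (MT2A, MT1E, MT1X, MTF1 and SLC30A1) were abundant enough to be tested among 16208 genes. SKOV3 is an established human ovarian cancer line. Its cells carried either a negative control siRNA (NC, 3 libraries) or an siRNA against EIF5A2, a translation factor of the eIF5A family (si-EIF5A2, 3 libraries), and RNA was sequenced with the time of 48 h given in the series description. The model is limited to a single cell line and a single siRNA, and nothing in the labels says that replicates came from separate cultures, so the p-values measure only the spread between these libraries, which may be technical.

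Metallothioneins are small proteins very rich in cysteine, whose thiol groups hold zinc, copper and cadmium ions and react with oxidants. When free zinc rises, MTF1 binds it through its zinc fingers, enters the nucleus and switches on genes whose promoters carry metal response elements, above all the metallothioneins and SLC30A1. The first group stores the metal and the second removes it from the cell, so transcripts of both are widely read as a measure of zinc or cadmium exposure. In human cells the metallothionein genes lie side by side on chromosome 16, and MT2A is usually the most abundant of them.

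The coding sequences are shown for the 3 tested metallothioneins, because they show how alike the genes are and where the metal-binding residues lie. They were read from the GENCODE 29 transcripts (GRCh38), with the cysteine codons TGC and TGT in capitals.
MT2A: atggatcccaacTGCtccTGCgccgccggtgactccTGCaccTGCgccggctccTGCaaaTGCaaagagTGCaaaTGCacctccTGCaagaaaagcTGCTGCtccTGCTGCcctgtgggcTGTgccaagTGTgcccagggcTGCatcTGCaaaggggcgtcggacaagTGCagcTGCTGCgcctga
MT1E: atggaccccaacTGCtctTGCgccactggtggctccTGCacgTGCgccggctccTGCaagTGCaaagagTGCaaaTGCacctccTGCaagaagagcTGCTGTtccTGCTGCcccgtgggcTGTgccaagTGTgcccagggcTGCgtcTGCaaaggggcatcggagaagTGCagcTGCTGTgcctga
MT1X: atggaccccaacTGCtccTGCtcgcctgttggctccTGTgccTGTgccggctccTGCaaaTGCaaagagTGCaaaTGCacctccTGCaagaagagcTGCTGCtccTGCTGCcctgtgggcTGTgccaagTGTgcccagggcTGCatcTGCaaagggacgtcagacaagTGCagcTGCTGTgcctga
Each ran over 3 exons and encoded 61 residues, 20 of which (32.8%) were cysteine. Among the 6 metallothioneins followed here, the 15 pairs of coding sequences were 88.7% to 93.7% identical, and MT2A and MT1E shared 92.5% of positions. No stretch of 150 bases, the read length, was common to the transcripts of any pair of metallothionein genes or pseudogenes. Of the stretches of 50 bases, 3.02% in MT2A, 7.10% in MT1E and 3.64% in MT1X also occurred in another family member. Only a read confined to such a stretch would match another copy exactly, and a full read of 150 bases would not. How often reads were assigned to the wrong copy was not tested.

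The promoter of a metallothionein is where MTF1 acts. The core of its binding element was searched as TGCACNC or TGCGCNC on both strands of the 250 bases before the RefSeq start (GRCh38.p14), and such a promoter was found for 4 of the 8 genes, MT2A, MT1X, SLC30A1 and MTF1. MT2A held 7 cores and MT1X 4, against 24.8% of 35116 promoters with at least 1, 0.37% with at least 4 and 0.0313% with at least 7. SLC30A1 held 1 core and MTF1 held 0. The upstream stretches of MT1X (chr16:56682220-56682423, plus strand) and SLC30A1 (chr1:211579162-211579411, minus strand) and 3 short stretches of MT2A (chr16:56608429-56608455, chr16:56608487-56608513 and chr16:56608521-56608547, plus strand) are given 5′ to 3′ with the cores in capitals.
MT1X upstream: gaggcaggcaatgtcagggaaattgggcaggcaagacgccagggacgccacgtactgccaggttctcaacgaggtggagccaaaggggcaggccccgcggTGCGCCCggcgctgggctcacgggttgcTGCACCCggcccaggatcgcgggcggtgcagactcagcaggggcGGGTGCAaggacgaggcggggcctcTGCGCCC
SLC30A1 upstream: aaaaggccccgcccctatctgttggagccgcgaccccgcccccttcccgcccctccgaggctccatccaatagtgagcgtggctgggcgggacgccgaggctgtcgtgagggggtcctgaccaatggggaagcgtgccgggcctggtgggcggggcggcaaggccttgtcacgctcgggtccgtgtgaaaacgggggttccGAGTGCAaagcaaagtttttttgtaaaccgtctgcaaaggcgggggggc
MT2A at -155: ggTGCGCCCggcccagTGCGCGCggcc
MT2A at -97: gcgcggggcGTGTGCAggcagcgcccg
MT2A at -63: cggggctttTGCACTCgtcccggctct
All 250 bases searched in MT2A lie inside the first exon of a longer GENCODE transcript (MT2A-201), so the start used here is the RefSeq one. The RefSeq start of SLC30A1 lies upstream of the GENCODE start of the gene, and the bases just before the GENCODE start were not searched. A match of these letters is a description of the sequence and not a measured binding site.

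**Figure D1:**
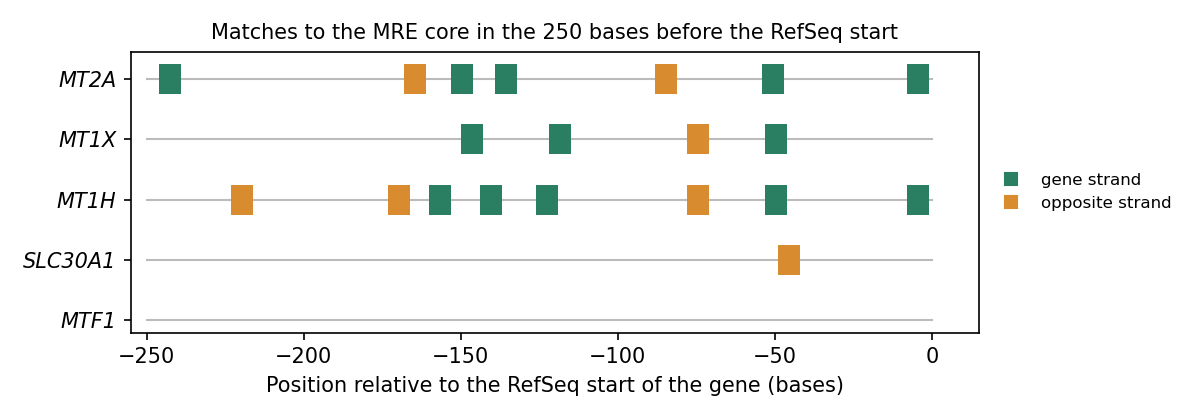
Positions of the metal response element core (TGCACNC or TGCGCNC) in the 250 bases before the RefSeq start of 5 genes, in bases from the start, with the gene strand in green and the opposite strand in orange. MT2A has 7 cores and MT1X has 4 in this window, SLC30A1 has 1 and MTF1 has none; MT1H, which has 8, had 0 counts in all 6 libraries.

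The libraries held 46900204 to 74142267 estimated counts. Low values piled up near multiples of about 3.81 counts, though not all of them: of the values from 1 to 20 counts, 39.9% lay at such a multiple, against 25% of the whole numbers in that range. If 1 fragment was worth 3.81 counts, the libraries held about 12300000 to 19500000 fragments. EIF5A2 fell from 29.1 ± 1.15 to 3.69 ± 0.817 CPM (counts-per-million; mean ± SD, n = 3 here and below), in keeping with the labels of all 6 libraries. Of 10 epithelial and ovarian marker genes, KRT8 (608 CPM in NC), KRT18 (418), KRT7 (382) and PAX8 (106) were abundant, EPCAM was at 1.55 CPM and MUC16 at 0 counts. Of the 9 tested, KRT7, KRT8 and PAX8 were significantly downregulated after EIF5A2 knockdown. ERBB2 (log2 fold change -0.02), KRT18 (-0.08), WT1 (0.37), KRT19, EPCAM and MSLN did not change significantly. Of 9 markers of blood, endothelial and stromal cells, 7 had a count, and PTPRC and CD3E were at 0 in every library. The 9 together ranged from 2.15 to 2.64 CPM among the NC libraries and from 0.548 to 2.61 CPM after knockdown. The stromal markers COL3A1 (34 counts), DCN (11) and LUM (11) had a count only in si-EIF5A2 replicate 3. PECAM1 made up most of the NC sum, at a mean of 1.87 CPM against 0.318 CPM after knockdown, and did not change significantly. Across all genes tested, 24.6% were called, that is, they passed both a limit of 0.05 on the adjusted p and a 1.5-fold limit, with 11.1% higher and 13.6% lower in si-EIF5A2; without the limit on the fold change, 18.0% were higher and 18.9% lower. With both limits, 3 of the 9 epithelial and ovarian markers tested were called, each lower (33.3%).

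After EIF5A2 knockdown, transcripts of the main metallothioneins were lower and those of MTF1 and SLC30A1 higher. MT2A and MT1E fell to 75.0% and 81.9% of the NC level, while MTF1 and SLC30A1 rose to 157% and 144% of the NC level. Of the 5 genes tested, 1 (MTF1) was called, which is 20.0% against the 24.6% of all genes. At an adjusted p under 0.05 with any fold change, 2 were lower (MT2A, MT1E) and 2 higher (MTF1, SLC30A1), beside 18.9% and 18.0% of all genes. MT1E passed that limit in only 9 of 15 refits. In all 5 the libraries of both groups were fully separated, as was so for 51.2% of all genes tested. The median log2 fold change of the 5 was -0.15, beside -0.010 over all genes tested. In bulk RNA, fewer cells expressing a gene and less RNA per cell cannot be told apart.

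MT2A (ENSG00000125148, chr16:56608199-56609497, plus strand) encodes the most abundant human metallothionein. Its level was 2227, 1884 and 1823 CPM in NC replicates 1 to 3 and 1440, 1510 and 1499 CPM in si-EIF5A2 replicates 1 to 3. All 3 knockdown libraries lay below all NC libraries and close to each other, and NC replicate 1, which was also the deepest library, stood highest. The mean fell from 1978 ± 218 to 1483 ± 37.4 CPM, to 75.0% of its NC value. The log2 fold change of -0.42 (SE 0.09, 95% interval -0.62 to -0.21) passed the quasi-likelihood test in edgeR (Benjamini-Hochberg adjusted p = 0.00705) but was under the limit on the fold change. The adjusted p stayed under 0.05 in 15 of 15 refits by edgeR or DESeq2, from 0.00063 to 0.0269, and without NC replicate 1 the log2 fold change was -0.32.

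MT1E (ENSG00000169715, chr16:56625475-56627112, plus strand), the second most abundant family member here, showed a smaller fall of the same shape. It was measured at 440, 377 and 346 CPM in NC and at 314, 323 and 315 CPM in si-EIF5A2. NC replicate 1 was again the highest library, and the lowest NC library lay only a little above the highest knockdown library. The mean went from 387 ± 48.0 to 317 ± 5.06 CPM with a log2 fold change of -0.29 (SE 0.10, 95% interval -0.51 to -0.07; quasi-likelihood test in edgeR, Benjamini-Hochberg adjusted p = 0.0464). This was close to the threshold: the adjusted p was under 0.05 in 9 of 15 refits and ranged from 0.0195 to 0.111, and it was over the threshold without NC replicate 1 or 2, without any 1 of the knockdown libraries, and under a replicate block. Without NC replicate 1 the log2 fold change was -0.19, over 1.5 times smaller than with all libraries.

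MT1X (ENSG00000187193, chr16:56682424-56684196, plus strand), an MTF1 target with 4 cores in its promoter, had no detectable change. The libraries gave 34.2, 35.0 and 33.2 CPM in NC and 28.4, 31.4 and 32.7 CPM in si-EIF5A2. The groups did not overlap, but the gap between NC replicate 3 and si-EIF5A2 replicate 3 was small beside the spread within the knockdown. The log2 fold change was -0.15 (SE 0.09, 95% interval -0.36 to 0.06; quasi-likelihood test in edgeR, Benjamini-Hochberg adjusted p = 0.255), and 0 of 15 refits passed. A lncRNA gene on the same strand overlaps 321 bases of its exons and had 0 counts in every library.

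MT1F (chr16:56657694-56660698, plus strand), MT1G (chr16:56666731-56668065, minus strand) and MT1M (chr16:56632233-56633986, plus strand) encode further inducible MT-1 isoforms and were at or near 0. MT1F had 5 counts in NC replicate 3 and 0 in the other libraries. MT1G had 5 counts in si-EIF5A2 replicate 2 and 0 elsewhere, and MT1M had 0 counts in all 6 libraries. A count of 0 allows up to 3 fragments, or 0.157 to 0.243 CPM depending on the library if a fragment was worth 3.81 counts, a limit that covers counting error only. No comparison between the groups was possible for these 3 genes at this depth.

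**Figure D2:**
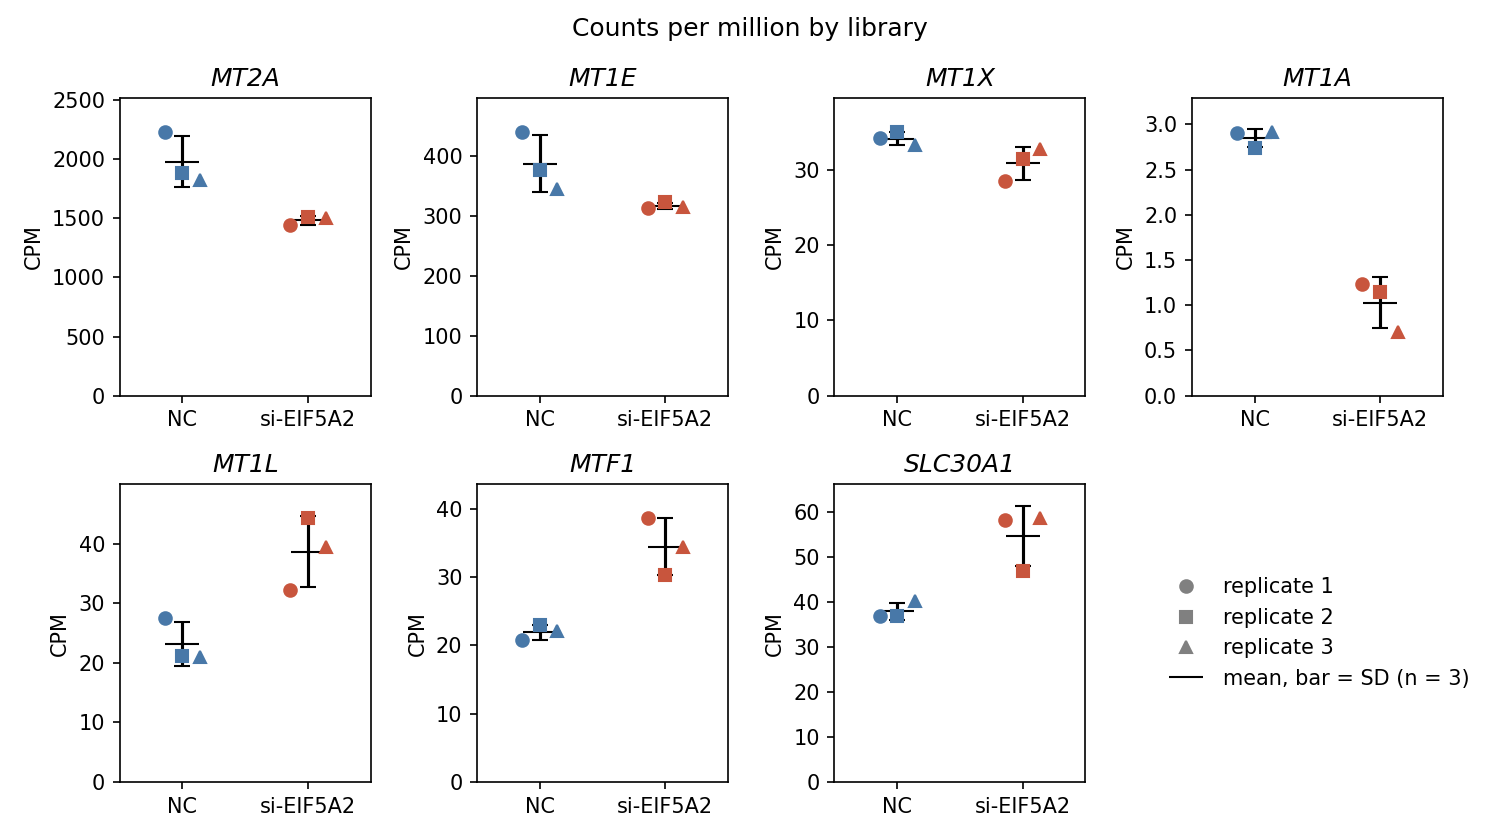
CPM of 7 genes in each library, on linear axes that start at 0, with NC in blue and si-EIF5A2 in red, the symbol giving the replicate, the horizontal line the mean and the bar the SD of 3 libraries. In each panel the groups do not overlap; MT2A, MT1E, MT1X and MT1A are lower and MT1L, MTF1 and SLC30A1 higher in the si-EIF5A2 libraries, MT1X by less than the test detects.

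In case reads were split between copies, the metallothioneins were also summed. The 6 genes together held 2701, 2295 and 2202 CPM in NC and 1782, 1865 and 1847 CPM in si-EIF5A2. The knockdown libraries lay within a narrow range below all NC libraries, at 76.3% of the NC mean (2399 ± 265 against 1831 ± 43.3 CPM, a log2 difference of -0.38). Adding every other metallothionein gene and pseudogene listed gave 77.1%. MT2A made up 82.4 ± 0.356% of the sum in NC and 81.0 ± 0.167% in si-EIF5A2, and MT1E 16.1 ± 0.377% and 17.3 ± 0.255%, so nearly all metallothionein RNA came from these genes in both groups.

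Levels of different genes were compared per kilobase of annotated exon. Among the 5 tested members in NC, MT2A stood at 1523 ± 168 CPM per kb, rank 29 of 16176 genes, followed by MT1E at 368 ± 45.7 CPM per kb (rank 121) and MT1X at 19.2 ± 0.495 CPM per kb (rank 2244). MT2A was thus 4.13 times as high as MT1E and 79.1 times as high as MT1X. SLC30A1, at 6.94 ± 0.343 CPM per kb, and MTF1, at 2.73 ± 0.139 CPM per kb (rank 8094), were far lower. No neighbours among these 5 overlapped in their spread, and the order was the same in si-EIF5A2. These ratios depend on the length used, since the annotated exons of MT2A and of MT1X each span the whole gene. With the length of the first numbered transcript of each gene, chosen after seeing the data, MT2A stood at 2516, MT1E at 550 and MT1X at 75.8 CPM per kb, so that MT2A was 4.57 times as high as MT1E and 33.2 times as high as MT1X. The order of the 5 was the same. The pseudogene MT1L, outside the 5, lay between MT1E and MT1X by exon length (56.4 ± 9.06 CPM per kb in NC, rank 784). By transcript length it lay below MT1X in NC (56.4 against 75.8 CPM per kb) and above it in si-EIF5A2 (94.1 against 68.5).

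**Figure D3:**
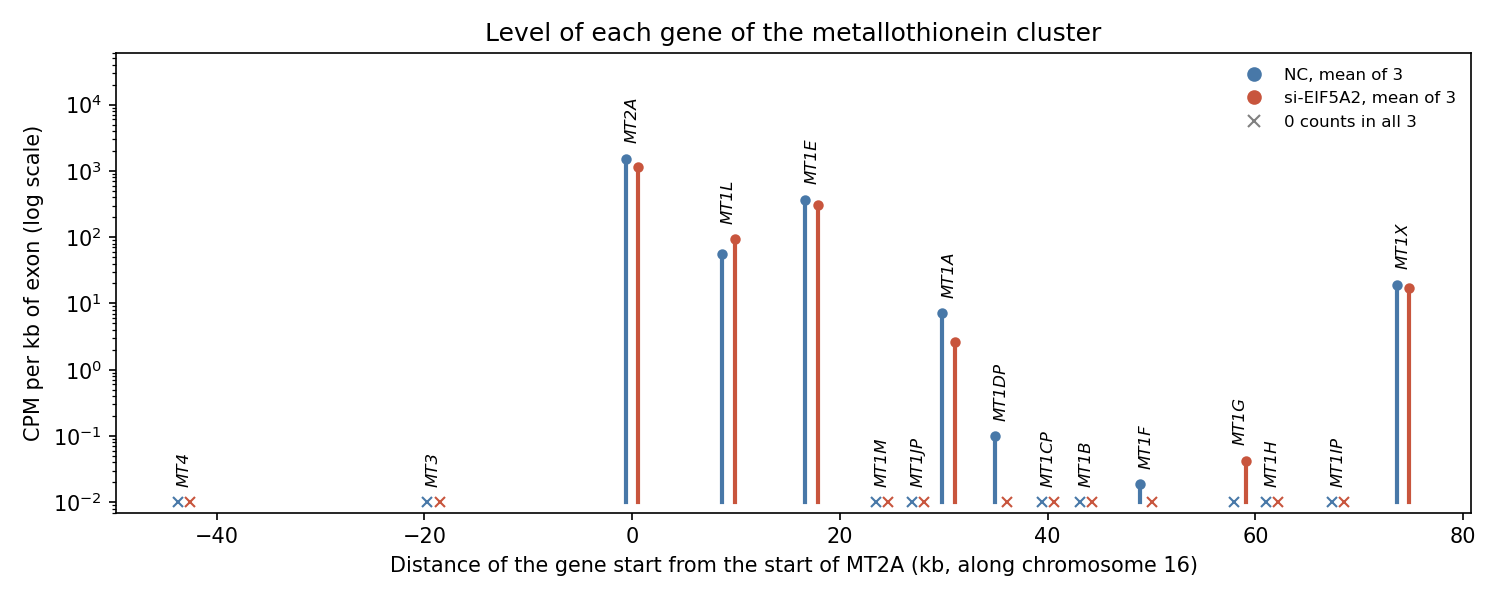
Mean level of each metallothionein gene and pseudogene of the chromosome 16 cluster in CPM per kb of exon on a log scale, against its distance in kb from the start of MT2A, with NC in blue and si-EIF5A2 in red and crosses for 0 counts in all 3 libraries. MT2A and MT1E stand highest, and most of the other genes, among them MT1M, MT1B, MT1H, MT3 and MT4, are at 0 in both groups.

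MTF1 (ENSG00000188786, chr1:37809567-37859620, minus strand), the factor that reads zinc and drives the metallothionein promoters, was significantly upregulated by EIF5A2 knockdown. Its level was 20.7, 22.9 and 22.1 CPM in NC and 38.6, 30.2 and 34.4 CPM in si-EIF5A2. Every knockdown library lay above every NC library, with replicate 1 of the knockdown the highest. The mean rose from 21.9 ± 1.11 to 34.4 ± 4.17 CPM, and the log2 fold change was 0.65 (SE 0.11, 95% interval 0.39 to 0.91; quasi-likelihood test in edgeR, Benjamini-Hochberg adjusted p = 0.00278). The adjusted p was under 0.05 in 15 of 15 refits, from 1.06e-05 to 0.0137; without si-EIF5A2 replicate 1 the log2 fold change was 0.55 (edgeR, adjusted p = 0.0108), which is under the limit on the fold change, so this library decided the call.

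SLC30A1 (ENSG00000170385, chr1:211571568-211578742, minus strand), which encodes the exporter ZnT1 and is a direct MTF1 target, rose as well. It was measured at 36.8, 37.0 and 40.2 CPM in NC and at 58.3, 47.0 and 58.6 CPM in si-EIF5A2. As for MTF1, replicate 2 was the lowest knockdown library and still lay above all NC libraries. The mean went from 38.0 ± 1.88 to 54.6 ± 6.61 CPM with a log2 fold change of 0.52 (SE 0.11, 95% interval 0.27 to 0.78; quasi-likelihood test in edgeR, Benjamini-Hochberg adjusted p = 0.00656), just under the limit on the fold change. It passed that limit without si-EIF5A2 replicate 2 (log2 fold change 0.62, edgeR, adjusted p = 0.0028), and the adjusted p was under 0.05 in 15 of 15 refits, from 0.000211 to 0.0286.

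The MTF1 targets SLC30A1 and MT2A thus went in opposite directions, and this was measured within each library as a ratio that does not depend on library size. SLC30A1 was 1.65%, 1.96% and 2.20% of MT2A in NC and 4.05%, 3.11% and 3.91% in si-EIF5A2. MTF1 was 0.930%, 1.22% and 1.21% of MT2A in NC, and 2.32 ± 0.339% as the mean of the 3 si-EIF5A2 libraries, the lowest of which lay above all NC libraries. Both ratios were higher in every knockdown library, by 0.93 and 1.05 on the log2 scale. This had to follow from the levels, since SLC30A1 and MTF1 were higher and MT2A lower in every knockdown library than in every NC library. It is therefore no separate test of the opposite directions. MT1E was 19.6 ± 0.536% of MT2A in NC and 21.4 ± 0.359% in si-EIF5A2, a log2 difference of 0.13, and MT1X was 1.74 ± 0.175% and 2.08 ± 0.104%. The groups did not overlap in any of the 6 ratios computed, and for each the 2-sided exact permutation test gave p = 0.10 (adjusted 0.10), the smallest that 3 against 3 libraries allow. For SLC30A1 and MTF1 over MT2A, and for MT1L over MT1E, this outcome was fixed by the separate levels.

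Outside the 8 genes, the family had 2 more copies that changed, in opposite directions. MT1A (chr16:56638666-56640087, plus strand), a low-level functional metallothionein, was at 2.90, 2.74 and 2.91 CPM in NC and at 1.23, 1.15 and 0.709 CPM in si-EIF5A2. These are small values, 137 to 212 counts in NC and 34 to 63 counts in si-EIF5A2, yet the groups were well apart. MT1A was significantly downregulated with a log2 fold change of -1.47 (SE 0.28, 95% interval -2.11 to -0.82; quasi-likelihood test in edgeR, Benjamini-Hochberg adjusted p = 0.00442) and fell from 0.145 ± 0.0147% to 0.0697 ± 0.0199% of MT2A. Its log2 fold change stayed between -1.62 and -1.26 over the alternatives, and 5.76% of its 50-base stretches occurred in another family member.

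MT1L (chr16:56617476-56618818, plus strand), annotated as a transcribed pseudogene between MT2A and MT1E, rose. It was at 27.5, 21.1 and 21.0 CPM in NC and at 32.3, 44.2 and 39.5 CPM in si-EIF5A2. Its log2 fold change was 0.74 (SE 0.15, 95% interval 0.38 to 1.10; quasi-likelihood test in edgeR, Benjamini-Hochberg adjusted p = 0.00707). Beside its neighbour MT1E, MT1L went from 5.98 ± 0.333% to 12.2 ± 1.72%, higher in every knockdown library, as the separate levels of both genes required. The longest stretch it shares with MT1E is 43 bases. The processed pseudogene MT2P1 on chromosome 4 had a log2 fold change of -0.30 (95% interval -1.12 to 0.52; quasi-likelihood test in edgeR, Benjamini-Hochberg adjusted p = 0.565). MT1B, MT1H, MT1HL1, MT3, MT4, MT1CP, MT1IP and MT1JP had 0 counts in all 6 libraries, and MT1DP, MT1P1, MT1P3 and MT1XP1 had at most 4 counts in a library.

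Other zinc transporters were listed beside SLC30A1, the SLC30 family moving zinc out of the cytosol and the SLC39 family moving it in. Of 9 other exporters, 5 were tested and 0 were called, 0 had an adjusted or an unadjusted p under 0.05 by edgeR, and 0 by DESeq2. Their median log2 fold change was 0.085, from -0.04 to 0.36, beside 0.52 for SLC30A1. Of 14 importers, 11 were tested and 4 were called, each higher (36.4%, beside 11.1% of all genes called higher), with a median of 0.60 over the 11. SLC39A7, which releases zinc from the endoplasmic reticulum, rose from 122 ± 5.76 to 316 ± 1.27 CPM (log2 fold change 1.37), SLC39A9 from 20.1 ± 7.25 to 38.8 ± 4.86 CPM (0.95), SLC39A6 from 44.7 ± 3.74 to 82.8 ± 6.99 CPM (0.89) and SLC39A11 from 8.35 ± 1.26 to 13.3 ± 0.454 CPM (0.67). SLC39A8, a plasma membrane importer of zinc and manganese, fell by 0.42 on the log2 scale, under the limit on the fold change. Over all 16 transporters 4 were called, each higher, and 2 were called without NC replicate 3. The share of 25% stands beside 24.6% of all genes called and 11.1% called higher.

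Genes induced by metals, oxidants or misfolded proteins other than the metallothioneins were read next. Of 11 such genes, 6 were called and each was higher in si-EIF5A2 (54.5%, beside 11.1% of all genes called higher), with a median log2 fold change of 0.74. Of the 6, HSPA1A, HSPA1B, DNAJB1 and HSPH1 are heat shock genes, and the others were GCLM and SRXN1. The heat shock chaperone HSPA1A rose from 80.0 ± 16.3 to 205 ± 18.1 CPM (log2 fold change 1.35), its near-identical copy HSPA1B from 89.8 ± 11.9 to 210 ± 25.8 CPM (1.22), and the cochaperone HSPH1 rose by 0.97 on the log2 scale; reads cannot always be told apart between HSPA1A and HSPA1B. GCLM, a subunit of the glutathione-synthesizing enzyme, rose from 14.8 ± 0.626 to 34.5 ± 2.43 CPM (1.22). HMOX1, a heme-degrading enzyme that metals also induce, was at 39.8 ± 3.09 and 47.5 ± 4.15 CPM (log2 fold change 0.25; quasi-likelihood test in edgeR, Benjamini-Hochberg adjusted p = 0.087). The cystine importer SLC7A11 and the quinone reductase NQO1 fell by 0.38 and 0.25 on the log2 scale, under the limit on the fold change. GCLC and TXNRD1, with log2 fold changes of -0.28 and 0.37, were not called (quasi-likelihood test in edgeR, Benjamini-Hochberg adjusted p = 0.131 and 0.552).

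Copper, which metallothioneins also bind, was covered by 11 genes with 12 identifiers, all tested. Of these 4 were called (33.3%, beside 24.6% of all genes called and 11.1% called higher), each higher, with a median log2 fold change of 0.42 over the 12. They were SLC31A2 (1.32), the mitochondrial copper carriers SCO2 (1.12) and COX17 (0.67), and the copper-exporting ATPase ATP7B (0.87). A second SCO2 identifier, with 0 counts in NC replicate 3, was not called (log2 fold change 1.69, quasi-likelihood test in edgeR, Benjamini-Hochberg adjusted p = 0.272). Glucocorticoids induce metallothioneins too, and of 9 genes known to respond to them 8 were tested and 4 called, beside 24.6% of all genes. SGK1 (1.11), DUSP1 (0.88) and CEBPD (0.84) were higher and FKBP5, a well known glucocorticoid target, was lower (-1.10), so the list did not move one way.

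Neighbouring genes were read to see whether the chromosome 16 region as a whole was lower. Within 500 kb of the metallothionein cluster, 38 other genes were annotated and 13 tested, and their log2 fold changes had a median of -0.06. Lower levels were called for 2 of them, PSME3IP1 (63.1 ± 1.22 to 24.0 ± 0.934 CPM, log2 fold change -1.39) and NLRC5 (4.72 ± 0.655 to 2.45 ± 0.593 CPM, -0.94). Their 15.4% stands beside 13.6% of all genes called lower and 24.6% called in either direction. In the refit without NC replicate 3, 1 was called. At an adjusted p under 0.05 with any fold change, the rule by which MT2A and MT1E were lower, 4 of the 13 were lower, beside 18.9% of all genes, and 1 was higher. The lower ones included NUDT21 and BBS2, both at -0.43, a value close to that of MT2A (-0.42).

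**Figure D4:**
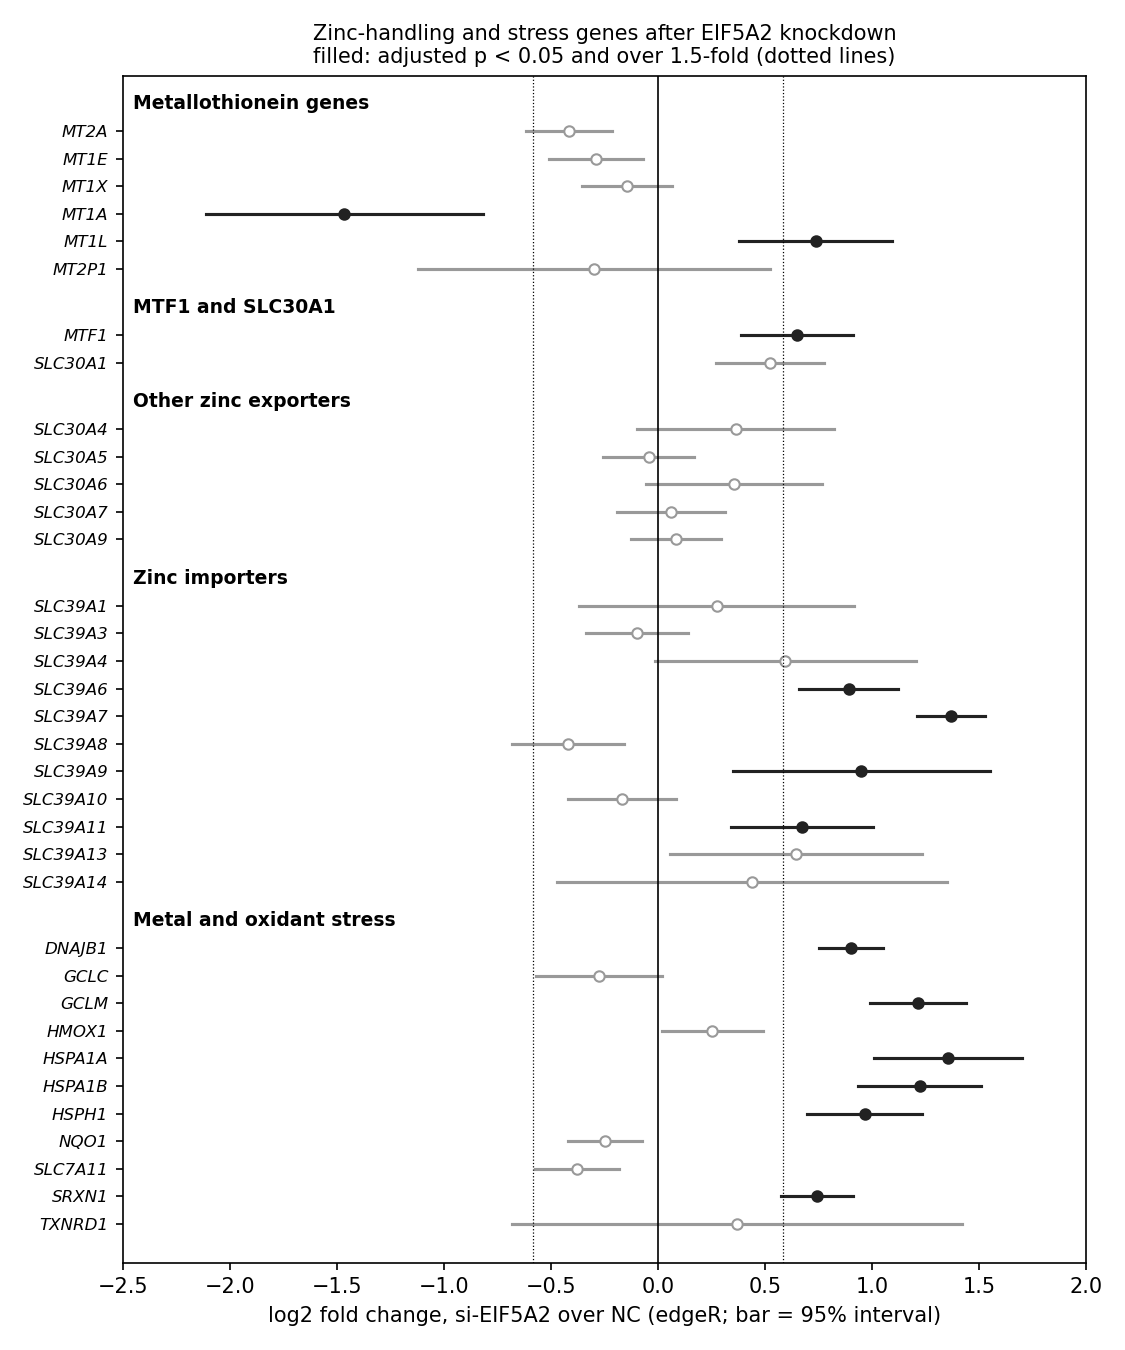
Log2 fold change of si-EIF5A2 over NC with 95% intervals (edgeR) for the tested metallothionein copies, MTF1, SLC30A1 and the lists of zinc transporters and stress genes, with filled points for genes called and dotted lines at the 1.5-fold limit. Of the metallothionein copies MT1A is called lower and MT1L higher, MTF1 is called higher, and the 4 importers and 6 stress genes called are all to the right of 0.

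The genes whose levels ran most like those of MT2A and MTF1 were found among 8843 genes of at least 10 CPM, by Pearson's r of log2 CPM over the 6 libraries. For MT2A these were MAP4 (r = 0.998), CDC42EP2, C11orf68, SLCO4A1 and RRP8 (each 0.996). For MTF1 they were POLK (0.999), PLAA, SENP6, DENND4A and RAP2A (the last at 0.996). The 6 libraries fall into the 2 groups, which any gene that differs between them shares, and r exceeded 0.95 for 320 genes with MT2A and 689 with MTF1.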

How the data were processed

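RNA of 6 SKOV3 libraries (3 NC, 3 si-EIF5A2, grouped by their labels) had been sequenced as paired-end mRNA libraries. The authors quantified transcripts in StringTie and ballgown. The deposited gene table holds estimated counts, already whole numbers and not normalized, so rounding changed nothing. The submitters' processing notes list Bowtie 0.12.2 and the mouse builds mm8 and mm9, although the identifiers are human; the aligner and build of this table are not given in the sources used here. All 6 columns were matched by name, with 0 columns of no sample. Symbols were paired with 58472 of 58825 identifiers, and positions and lengths came from GENCODE 29 (GRCh38).

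The test, planned for counts, was edgeR 4.0.16 (R 4.3.3) on the deposited estimated counts: filterByExpr, TMM, robust quasi-likelihood fits, and p-values adjusted over 16208 genes by Benjamini-Hochberg. The same fit was run on counts simulated from its own fitted dispersions, which cannot show how well it holds for the deposited counts. Calls needed an adjusted p below 0.05 together with a change above 1.5-fold. CPM used TMM library sizes (factors 0.985 to 1.01). Summed levels and ratios have no model, and ratios had exact permutation tests. Alternatives were DESeq2 1.42.0, other normalizations and filters, the replicate number as a block, other thresholds and leaving out each library. Named were the 8 members, all family copies with a count, up to 4 called genes per direction in each list, and the 5 genes most like MT2A and MTF1. The uncalled HMOX1, SLC39A8, SLC7A11, NQO1, GCLC, TXNRD1, NUDT21 and BBS2 and the called DNAJB1 and SRXN1 were named after their values were seen. The members and lists were chosen with earlier results of these data known.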

Additional observations from a re-analysis of the deposited data

How the results depend on the processing

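Every log2 fold change of MT2A, MT1E, MT1X, MT1A, MT1L, MTF1 and SLC30A1 kept its sign in 15 of 15 refits. The remaining alternatives, of 17 in all, changed only the calling rule and left the log2 fold changes as they were. Of the 8 members, 4 were called without a limit on the fold change, and 0 with an unadjusted p under 0.05 and a 2-fold limit. That last rule, from the methods, also called 2370 of all genes, 2 copper, 2 glucocorticoid-induced and 3 stress genes, 1 zinc transporter and 1 neighbouring gene, while 5 neighbouring genes were called without a fold limit and 5974 of all genes. Leaving out 1 library gave 0 members (without si-EIF5A2 replicate 1) to 2 (without si-EIF5A2 replicate 2), 1 to 3 neighbouring genes and 2 to 5 zinc transporters, the lowest of both without NC replicate 3. The summed metallothionein level (log2 difference -0.38) ranged from -0.44 to -0.30 when NC replicate 3 or 1 was left out. The causes of these shifts were not tested, apart from the stricter or looser rules themselves.

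The replicate numbers did not pair the samples: same-numbered libraries correlated at -0.069, 0.011 and 0.0034 in their deviations, and no library correlated best with its own number. With a replicate block 3731 genes were called, MTF1 was the only 1 of the 8 members called, and the MT1E log2 fold change of -0.28 had an edgeR adjusted p of 0.0813. MT1F, MT1G and MT1M had too few counts to be tested.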
